A study of Homo sapiens with 2 samples.

Results

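Chromosome 20 was the chromosome with the most TCF3::HLF-HiChIP interactions for its length. Its members are the interactions whose bins lie on chromosome 20, 1547 of the 49245 interactions in the list, and the chromosome was chosen by the number of interactions per Mb in this same list. The value that chose it is therefore given as a description, with no test. HAL-01 is a B cell precursor leukemia cell line with the translocation t(17;19), which fuses TCF3 to HLF. The cells stably expressed Cas9GFP, had received a guide against wild-type TCF3 and were selected for stable knockout, so that the antibody against E2A (another name of TCF3) pulled down the fusion protein. The 2 samples were replicates of this single condition and were merged by the authors before interactions were called. None of the values below has a replicate error, no sample could be left out, and no group was compared with another.

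In the HiChIP protocol used here, an antibody pulled down cross-linked, fragmented chromatin, and DNA ends held close together in it were then ligated. A pair of distant bins joined by many read pairs thus marks a contact at which the protein was cross-linked to at least 1 side. HLF is a transcription factor of the PAR bZIP family, and the fusion keeps its DNA binding domain, which recognizes a palindromic sequence, while TCF3 gives the activation domains. Genomic contacts of this kind can join enhancers to promoters, enhancers to each other, or sites that simply neighbor each other on the folded fiber, and the list does not tell these apart. In the deposited list each interaction joins 2 bins of 5 kb that lie 50 kb to 3 Mb apart at a q-value under 0.01. Its contact count says how many read pairs join them, and its sumCC adds up the contact counts of neighboring significant pairs. A bin that takes part in at least 1 interaction is called an anchor here, and an anchor with 10 or more interactions a hub. Positions are 1-based in hg38 and genes are those of GENCODE release 44. A start of a gene is the start of any of its annotated transcripts, so some starts lie inside the gene and are called internal.

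The HLF motif was searched as TTACGTAA or TTATGTAA on both strands. The following 60-base windows of the hg38 plus strand show it, in capitals, in hubs to which the results return. They were chosen because they lie in the anchors with the most partners or with the strongest contact, and none overlaps an annotated UTR.

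OSER1 anchor, exon of the divergent transcript OSER1-DT, chr20:44210952-44211011: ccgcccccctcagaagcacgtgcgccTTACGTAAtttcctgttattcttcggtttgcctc

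RPRD1B anchor, intron of RPRD1B, chr20:38094499-38094558: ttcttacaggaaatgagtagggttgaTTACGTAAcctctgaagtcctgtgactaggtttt

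KCNK15-AS1 anchor, intron of KCNK15-AS1, chr20:44736211-44736270: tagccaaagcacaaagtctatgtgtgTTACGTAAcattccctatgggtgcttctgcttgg

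HAO1 anchor, intergenic, the left of its pair of motifs, chr20:7680943-7681002: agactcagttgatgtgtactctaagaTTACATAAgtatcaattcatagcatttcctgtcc

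HAO1 anchor, intergenic, the right of its pair of motifs, chr20:7681297-7681356: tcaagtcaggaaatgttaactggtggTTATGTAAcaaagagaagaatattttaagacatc

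SIRP anchor, intron of ENSG00000286288, chr20:1733568-1733627: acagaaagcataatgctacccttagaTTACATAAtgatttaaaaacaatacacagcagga

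DOK5 anchor, intron of DOK5, chr20:54606507-54606566: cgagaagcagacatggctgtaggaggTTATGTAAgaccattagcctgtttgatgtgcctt

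The first 3 hold the full palindrome TTACGTAA, the OSER1 window among exons of OSER1-DT and the other 2 in introns. The right HAO1 window and the DOK5 window hold TTATGTAA, and the left HAO1 window and the SIRP window hold the same form on the minus strand, read here as TTACATAA.

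The 1547 interactions of chromosome 20 amounted to 24.0 per Mb (exact Poisson 95% interval, 22.8 to 25.2) over its 64.4 Mb. Chromosome 17 followed with 22.8 per Mb, chromosome 10 with 21.3 and chromosome 12 with 19.5. The median of the 22 other chromosomes was 15.7 per Mb, and chromosome X was the lowest with 7.15. By length, chromosome 20 ranked 20 of 23. The chromosome was densest also per Mb without runs of N (24.2), in summed contact counts (637 per Mb, from 41037 contact counts in all) and without the densest 1-Mb window of each chromosome (23.1 per Mb). Without the interactions of hubs it ranked 2, with 16.1 per Mb against 16.8 on chromosome 17.

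**Figure D1:**
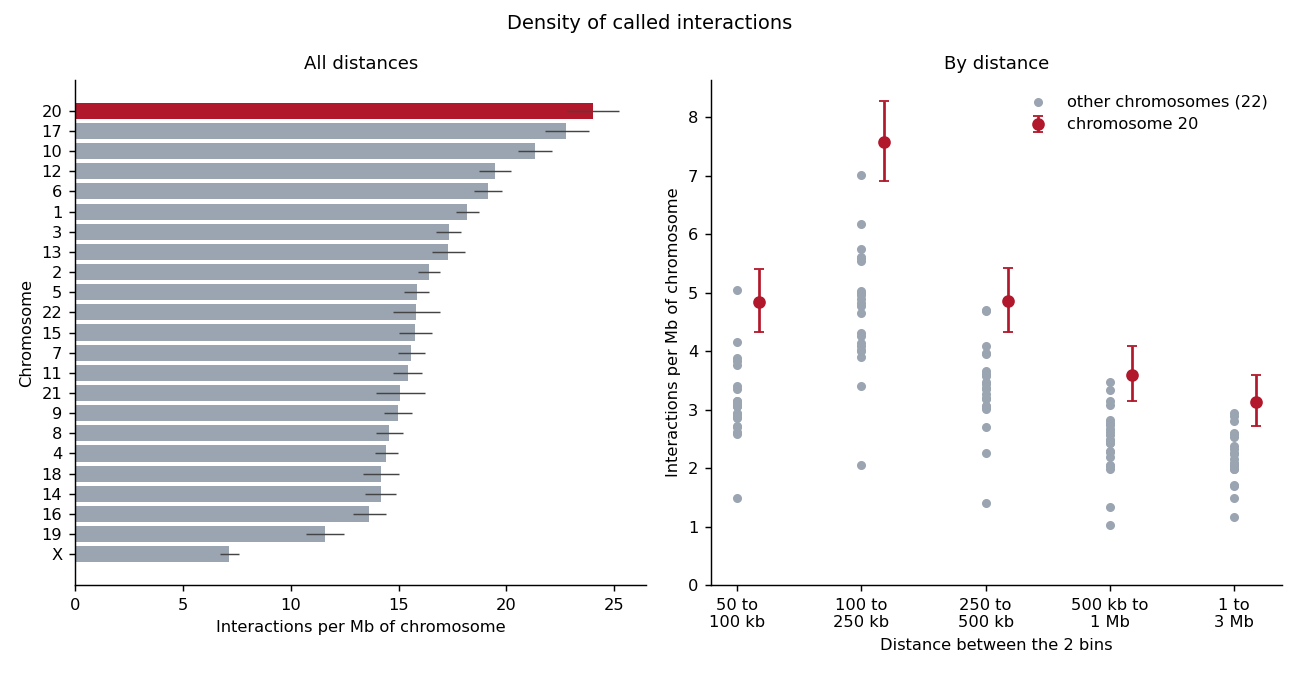
Number of interactions per Mb of chromosome for the 23 chromosomes (left, bars, with exact Poisson 95% intervals) and for 5 classes of distance between the 2 bins (right, red point for chromosome 20 with its interval, grey points for the other 22). Chromosome 20 has the longest bar, 24.0, and the highest point in every class but that of 50 to 100 kb.

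The density was not carried by a single range of distances. At 50 to 100 kb, chromosome 20 held 4.84 interactions per Mb and ranked 2 behind chromosome 17 with 5.04. In the 4 longer classes it ranked 1. It held 7.57 per Mb at 100 to 250 kb, where the highest of the others reached 7.0, and 4.86 at 250 to 500 kb against at most 4.70. At 500 kb to 1 Mb it held 3.60 per Mb against at most 3.47, and at 1 to 3 Mb 3.13 against at most 2.94. These margins over the next chromosome were within the Poisson 95% interval of chromosome 20 in every class. The median distance was 235 kb (95% interval, 225 to 255) on chromosome 20 and 255 kb on the other chromosomes together, and 13.0% of its interactions (Wilson 95% interval, 11.4 to 14.8) spanned over 1 Mb against 13.7% elsewhere. Intervals of counts and shares here and below cover counting error only. They leave out replicate error, and interactions that share an anchor are not independent, so the true error is larger by an unknown amount. The dedup step of pairtools was also omitted, and the share of duplicate read pairs in the counts was not measured.

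Single interactions on chromosome 20 were about as strong as elsewhere. The median contact count was 24 on chromosome 20 and on the other chromosomes, and the quartiles were 19 and 31 against 18 and 30. Relative to all interactions at the same distance, the median was 1.02 (1.00 to 1.04). A contact count of 50 or more was reached by 58 interactions, 3.75% (2.91 to 4.82), against 2.80% elsewhere. Of the interactions, 92.3% stood alone, with a sumCC equal to their contact count, the same share as on the other chromosomes. Chromosome 20 thus stood out in the number of its listed contacts, by which it was chosen, rather than in their median count. The medians of the other chromosomes ran only from 23 to 25, and pairs that missed the q-value threshold are not in the list.

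The interactions also used many different bins. There were 1682 anchors, 26.1 per Mb and the highest of 23 chromosomes, but the number of interactions per anchor was 0.920, which ranked 14. Of the anchors, 76.9% took part in 1 interaction. The 34 hubs amounted to 0.528 per Mb, which again ranked 1, and 32.8% of the interactions (30.5 to 35.2) touched a hub against 32.0% on the other chromosomes. Anchors and hubs per Mb are counted from the interactions whose density chose the chromosome, so their ranks add no separate evidence. A pair of hubs was joined by 4 interactions, 0.26% (0.10 to 0.66), against 0.29% on the other chromosomes. Over the 23 chromosomes the density followed anchors per Mb (Spearman's rho, 0.965) and hubs per Mb (0.851), which are counted from the same interactions. It did not follow HLF motifs per Mb (-0.029), protein-coding genes per Mb (0.144), GC content (0.100) or length (0.140). These correlations are descriptions over chromosomes that share 1 library. Chromosome 20 itself held 55.9 HLF motifs per Mb, which ranked 19, with a GC content of 43.8% (rank 5) and 8.47 protein-coding genes per Mb (rank 6).

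Along the chromosome, contacts were spread over most of its 65 windows of 1 Mb. The median window held 21 interactions, and the median of 2979 windows on the other chromosomes was 10. Only 2 windows held none, while 14.8% of windows elsewhere were empty. In 35 windows, 53.8%, there were 20 or more interactions, against 29.6% elsewhere. Windows of 50 or more made up 7.69% (3.33 to 16.8) on chromosome 20 and 5.81% elsewhere. On chromosome 20, few windows were thus empty and many were moderately filled. Fuller windows are part of the density by which the chromosome was chosen, so these values only describe it. Few empty windows were not particular to it, as chromosome 19, with 11.6 interactions per Mb, also had 2 empty windows of 59. Chromosome 17 had 4 empty windows of 84, and chromosome 10 had 6 of 134. Windows in runs of N were not set aside on any chromosome. It took 17 windows to hold 50% of the interactions, and the number per window did not follow its HLF motifs (Spearman's rho, 0.054) and followed its protein-coding genes weakly (0.296), both as descriptions over windows of 1 chromosome.

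**Figure D2:**
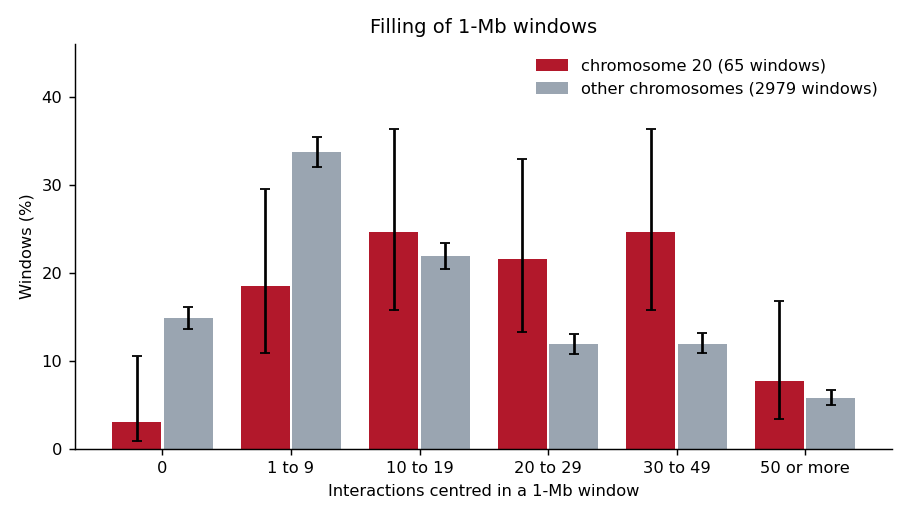
Share of 1-Mb windows (vertical axis, percent, with Wilson 95% intervals) by the number of interactions whose midpoint lies in the window, for chromosome 20 (red) and the other chromosomes (grey). Empty windows make up 3.08% on chromosome 20 and 14.8% elsewhere, and windows with 30 to 49 interactions 24.6% and 12.0%.

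The longest stretch without an anchor ran from 26345001 to 28930000, 2585 kb in the region of the centromere, and 0 interactions spanned it. Left of it, 698 interactions gave 26.5 per Mb (24.6 to 28.5), with 7.06 protein-coding genes per Mb. Right of it, 849 interactions gave 23.9 per Mb (22.3 to 25.6), with 10.1 genes per Mb. The side with fewer genes thus held no fewer contacts per Mb. The next longest stretch, from 59960001 to 61215000, ended near the start of CDH4, a cadherin gene, and 2 interactions spanned it.

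The 5 densest windows held 351 interactions, 22.7% of the chromosome's (20.7 to 24.8). They differed in gene content. The densest, from 44000001 to 45000000, held 83 interactions, 5 hubs and 18 protein-coding genes, among them HNF4A, a nuclear receptor of liver and gut, ADA, the adenosine deaminase whose loss causes immunodeficiency, STK4, a kinase of the Hippo pathway that lymphocytes need, and YWHAB, a 14-3-3 adaptor. Of all 3044 windows in the genome it ranked 33, and the other 4 ranked 44, 58, 71 and 158. The window from 8000001 to 9000000 held 78 interactions and overlapped only 2 protein-coding genes, PLCB1, a phospholipase C that signals from G protein-coupled receptors, and TMX4, a thioredoxin-related membrane protein. The window from 12000001 to 13000000 held 71 and overlapped no protein-coding gene. The window from 23000001 to 24000000 held 68 around the CST genes, a cluster of cystatin protease inhibitors, and the surface proteins CD93 and THBD (thrombomodulin). The last, from 38000001 to 39000000, held 51 and included TGM2, a transglutaminase, BPI and LBP, which bind bacterial lipopolysaccharide, and PPP1R16B, a regulatory subunit of protein phosphatase 1.

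PLCB1 was the gene with the most contacts inside its own body. Both bins touched it in 52 interactions, from 46 anchors over its 891 kb, with contact counts up to 54. MACROD2, a mono-ADP-ribosylhydrolase gene of 2058 kb, followed with 19. In all, 143 interactions, 9.24% (7.90 to 10.8), lay with both bins on a single protein-coding gene, and 33 genes held at least 1 of them.

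The strongest interaction of chromosome 20 was also the largest contact count of the whole list. It joined the bins 29260001 to 29265000 and 29885001 to 29890000, 625 kb apart, with a contact count of 615 (exact Poisson 95% interval, 567 to 666) and a P value listed as 0, the smallest of the list, which a few interactions on other chromosomes share. This was 30.8 times the median at that distance. The 2 bins share 1029 31-mers, however, above the 500 that mark near-identical bins, and this was the only near-identical pair among the 1547. The part of shared sequence in the count was not tested. Neither bin overlaps a gene, and the nearest protein-coding start, that of DEFB115, a beta-defensin gene, lay 1370 kb from the closer bin. Each bin holds 1 HLF motif. The left bin takes part in 1 interaction and the right bin in 3. The sumCC, 632, was also the largest of chromosome 20.

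The next largest contact count was 141 (119 to 166), between the bin at 44685001, which overlaps the transcript ENSG00000132832, and the bin at 44735001, a hub with the start of KCNK15-AS1, an antisense transcript of the potassium channel gene KCNK15. The bins lay 50 kb apart and flank CCN5, which encodes a secreted protein of the CCN family. The count was 5.22 times the median at that distance, and the P value was 1.3e-104. The sumCC was 354. It ranked 27 in contact count over the whole list, and the hub bin holds the TTACGTAA shown above.

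The RPRD1B anchor at 38090001 gave the interactions ranked 3 and 5 in contact count. RPRD1B encodes a factor that binds the C-terminal domain of RNA polymerase II. The anchor reached the bin at 38150001, inside TGM2, with 113 contact counts (93.1 to 136) and a P value of 1.6e-70, and the bin at 38140001, also inside TGM2, with 89 (71.5 to 110). At distances of 60 kb and 50 kb, these were 4.19 and 3.30 times the median. Between them in rank, the bin at 44775001, in RIMS4, a gene of synaptic membrane exocytosis, was joined to the hub at 44895001, in an intron of YWHAB, with 95 (76.9 to 116).

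The bin at 1555001, with the start of SIRPD, was joined to the SIRP anchor at 1730001 with a contact count of 84 (67.0 to 104) over 175 kb. The SIRP genes encode signal regulatory proteins, a family that includes immunoglobulin receptors on myeloid and lymphoid cells. The pair at 7600001 and 7680001, between BMP2 and HAO1, reached 81 (64.3 to 101), and its sumCC of 360 was the second largest of the chromosome, shared with the pair at 7620001 and 7680001. The pair at 41330001 and 41380001, near LPIN3, a phosphatidate phosphatase gene, and EMILIN3, an extracellular matrix gene, reached 79. The pair at 50800001, in BCAS4, and 50910001, within ADNP, a homeobox protein of chromatin remodeling, reached 78 (61.7 to 97.3). Both pairs lacked an HLF motif in either bin. With the contact count of 74 each, the pair at 12020001 and 12070001 and the pair at 41250001 (in ZHX3, a zinc finger homeobox repressor) and 41380001 followed. By P value, the pair at 58305001, with the start of RAB22A, a GTPase of endosomal traffic, and 58500001, 12.9 kb from the start of APCDD1L, ranked 7 with a contact count of 71 (55.5 to 89.6).

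Of the 5 anchors with the most partners, 4 also took part in an interaction among the 10 largest contact counts named above. The first, at 12020001, had 34 interactions, ranked 15 among all anchors of the genome and holds no HLF motif. It lies in an intergenic stretch 132 kb past the start of BTBD3, a gene of dendrite orientation. Its contact counts ran from 15 to 74 with a median of 26, and 24 of its partners lay to its right against 10 to its left. Most of those partners were intergenic. The 1 protein-coding start among them was that of SPTLC3, a subunit of the enzyme that begins sphingolipid synthesis, 985 kb away with a contact count of 29.

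The OSER1 anchor at 44210001 had 28 interactions, and it was the only 1 of the 5 that holds a protein-coding start. OSER1 encodes an oxidative stress-responsive serine-rich protein. Its contact counts ran from 15 to 49, with a median of 22. To the left, 7 partners included bins in JPH2, a gene of the muscle membrane. To the right, 21 partners ran over GDAP1L1, R3HDML and HNF4A to PKIG, ADA and beyond. Among the partners with a protein-coding start, PKIG, which encodes an inhibitor of protein kinase A, was reached in 3 bins with 17, 32 and 29 contact counts. ELMO2, an activator of Rac signaling, was reached in 1 bin with 22 over 2165 kb. The PKIG bin with 17 lies 0.72 kb from the start of the gene, and the other PKIG bins and the ELMO2 bin hold internal starts. The anchor holds 2 HLF motifs.

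The RPRD1B anchor had 27 interactions, split evenly with 14 to the left and 13 to the right, with a median contact count of 31. Its partners with protein-coding starts were the starts of RPRD1B and TTI1, a shared bin with a contact count of 26, and those of TGM2 (28), KIAA1755 (61) and BPI (30). The KIAA1755 start is internal, in a bin 33.3 kb from the start of the gene. The anchor itself lies in the body of RPRD1B, 58.8 kb from its start. The 2 strongest partners lay inside TGM2 and did not hold a start.

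The HAO1 anchor at 7680001 had 26 interactions. It lies in a gene-poor stretch, 258 kb from the start of HAO1, a liver peroxisomal oxidase, and its contact counts ran from 15 to 81. To the right it reached bins in HAO1 with counts of 20 and 28 and bins in PLCB1 with counts from 18 to 31, including an internal start of PLCB1 with 25 at 920 kb. Of its 26 partners, 10 hold an HLF motif, against 8 of 34 at the first anchor, 6 of 28 at OSER1, 5 of 27 at RPRD1B and 4 of 20 at SIRP. Over all hubs, 24.1% of partner bins hold a motif, near the 26.1% of all anchors of the chromosome.

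The SIRP anchor at 1730001 had 20 interactions, 15 of them to the left, toward the SIRP genes. It lies between SIRPG and SIRPA, in the transcript ENSG00000286288. Beyond SIRPD, its partners with protein-coding starts were SIRPG (32), NSFL1C, a cofactor of the p97 ATPase (34), and a bin (20) shared by FKBP1A, the protein that binds the drug tacrolimus, and the gene ENSG00000274322. The NSFL1C and SIRPG starts are internal, in bins 16.3 kb and 5.28 kb from the starts of the genes. To the right it reached a bin 71.7 kb from the start of SIRPA with a contact count of 30. Partners thus lay mostly on 1 side of the first, the OSER1 and the SIRP anchor, and on both sides of the RPRD1B and the HAO1 anchor.

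**Figure D3:**
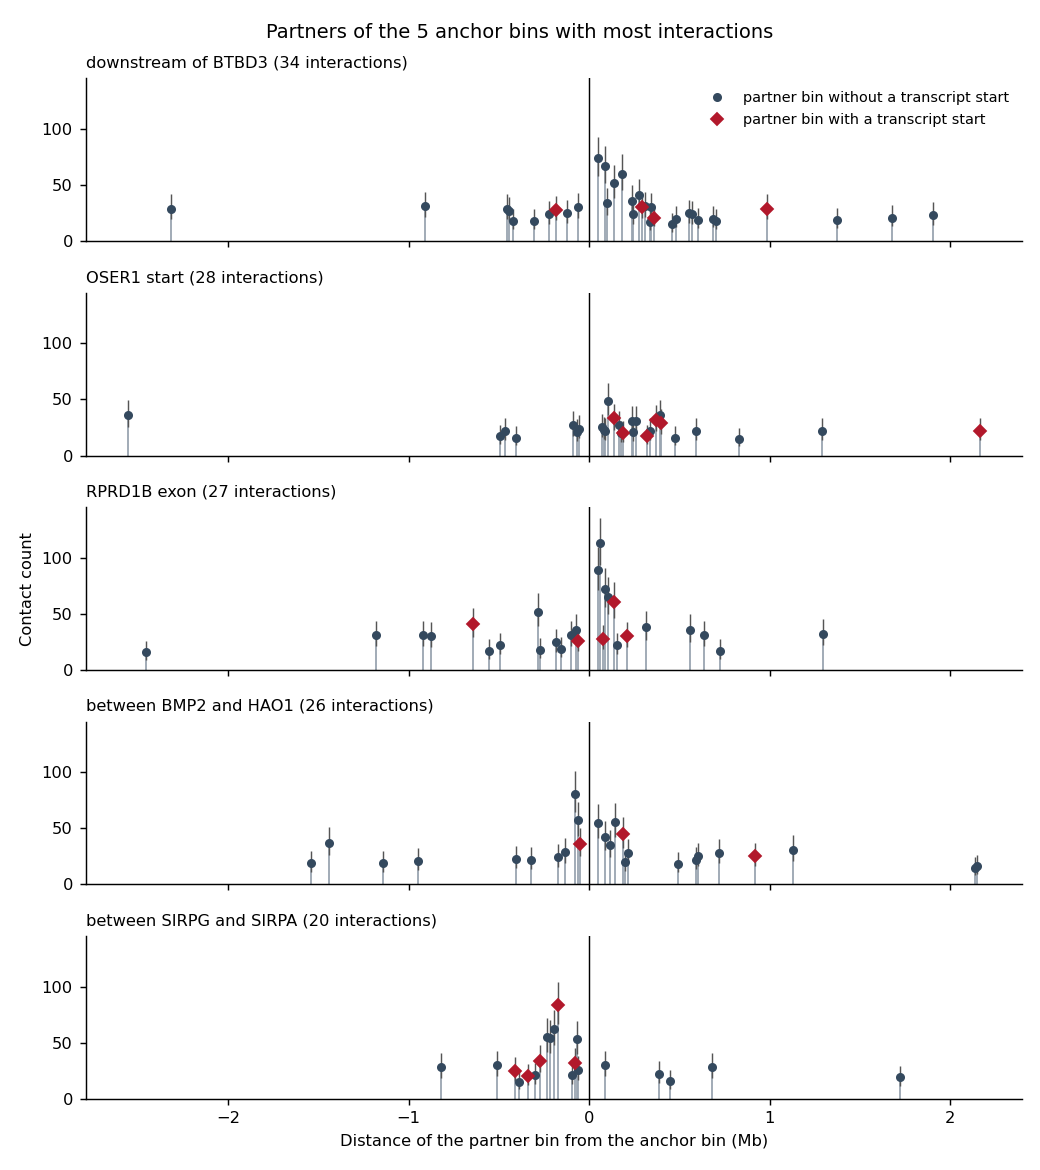
Contact count (vertical axis, with exact Poisson 95% intervals) of each partner bin of the 5 anchors with the most interactions, by its distance in Mb from the anchor (horizontal axis, negative to the left). Red diamonds mark partner bins with a transcript start. The largest count lies within 175 kb of the anchor in all 5, and that of the RPRD1B anchor, 113, is the highest.

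Over all 34 hubs, 14 hold a transcript start of any gene type, 41.2% (26.4 to 57.8), against 21.2% of 1092 hubs on the other chromosomes. In the bins 25 kb to either side the share was 27.3% (17.3 to 40.2) on chromosome 20 and 15.1% on the other chromosomes. On chromosome 20 the interval of these bins overlaps that of the hubs. A further 5 overlap an exon, 9 lie in introns and 6 are intergenic. Protein-coding starts in hubs are those of OSER1, ASIP, YWHAB, DPM1, MOCS3, BTBD3 and RPN2. The neighboring hubs at 23515001 and 23520001 both hold starts of CST13P. The hubs had 511 partner bins, counted once for each hub, of which 75.9% took part in no other interaction. Of these partner bins, 19.8% hold a transcript start, near the 18.2% of all anchors of the chromosome.

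Anchors of chromosome 20 held an HLF motif less often than those of the other chromosomes together, and so did their flanks. At least 1 motif was present in 439 of the 1682 anchors, 26.1% (24.1 to 28.3), against 31.6% on the other chromosomes. In flanking bins (bins 25 kb to either side that are not anchors) the shares were 23.5% and 28.4%. By the share of its anchors chromosome 20 ranked 19 of 23, above chromosomes 16 (25.2%), 17 (24.3%), 19 (21.7%) and 22 (21.0%). An HLF motif in at least 1 of the 2 bins was present in 60.8% of interactions (58.4 to 63.2) against 67.0% elsewhere, and in both bins in 11.4% (9.95 to 13.1) against 16.3%. The full palindrome TTACGTAA was present in 39 anchors, 2.32%.

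The motif share differed with the number of partners. Among the 1293 anchors with 1 interaction it was 24.0%, as in their flanks, and 28.6% on the other chromosomes. Among anchors with 2 to 4 interactions it was 24.2% (19.3 to 29.9) against 22.5% in flanks, and the other chromosomes had 34.7% against 27.1%. With 5 to 9 interactions it was 42.7% (33.6 to 52.4) against 18.4% (13.2 to 25.1), and 49.9% against 27.5% on the other chromosomes. Among the 34 hubs it was 70.6% (53.8 to 83.2; 24 of 34) against 27.3% (17.3 to 40.2), close to the 66.6% of hubs elsewhere. The share on chromosome 20 was below that of the other chromosomes in every class but the hubs, and its intervals cover the value of the others at 5 to 9 interactions and at the hubs. Of the hubs, 9 hold at least 2 motifs, 5 hold TTACGTAA, and 10, including the first by number of partners, hold none.

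**Figure D4:**
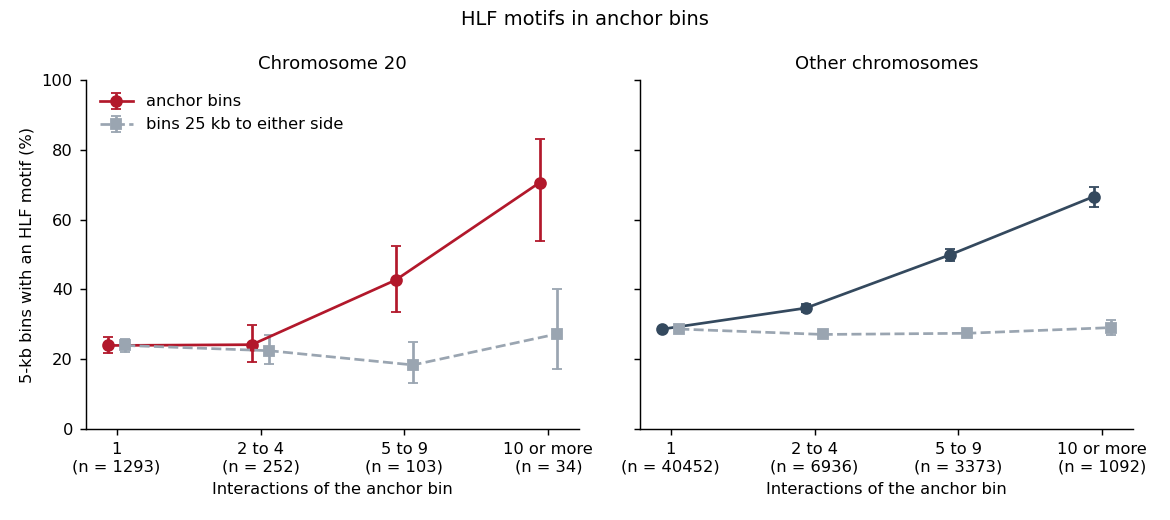
Share of 5-kb bins with an HLF motif (vertical axis, percent, with Wilson 95% intervals) by the number of interactions of the anchor, for anchors (circles) and flanking bins 25 kb away (squares), on chromosome 20 (left) and the other chromosomes (right). On chromosome 20 the anchors leave the flanks from 5 interactions on, with 42.7% against 18.4%, and on the other chromosomes from 2 to 4 on, with 34.7% against 27.1%.

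Transcript starts of any gene type were present about as often as elsewhere, and those of protein-coding genes less often. A transcript start of any gene type lay in at least 1 bin of 539 interactions, 34.8% (32.5 to 37.3), against 35.7% on the other chromosomes, and in both bins of 4.72% against 5.19%. Starts of protein-coding genes alone were present in 21.2% (19.2 to 23.3) against 24.1%. A protein-coding start was present in both bins of 33 interactions. The strongest of these, named here after their values were seen, joined ASIP, the agouti signaling gene, to AHCY, which breaks down S-adenosylhomocysteine (59 contact counts over 120 kb), and ASIP to DYNLRB1, a dynein light chain (57 over 325 kb). YWHAB and TOMM34, a gene of mitochondrial protein import, followed with 44 over 75 kb. NCOA3, a nuclear receptor coactivator, and SULF2, a heparan sulfate sulfatase, were joined start to start with 39 over 285 kb. CD40, the costimulatory receptor of B cells, and SLC35C2, a sugar transporter gene, were joined with 34 over 230 kb, and NCOA5, another coactivator gene, was joined to the same SLC35C2 bin with 34 over 265 kb. The CD40 and SLC35C2 starts are internal, in bins 4.23 kb and 12.0 kb from the starts of the genes.

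Of the 544 protein-coding genes of chromosome 20, 158 had an interaction at a bin with one of their starts, which is 29%, and 355 had one at a bin within 10 kb of a start, 65.3%. Against this background, the list of transcription factors and chromatin regulators had 11 of 30 genes, 36.7% (21.9 to 54.5). The list of leukocyte surface and signaling genes had 15 of 32, 46.9% (30.9 to 63.6). Cell cycle, replication and survival genes had 4 of 20, 20% (8.07 to 41.6), and developmental, adhesion and neural genes 5 of 30, 16.7% (7.34 to 33.6). Within 10 kb, the counts were 21 of 30, 25 of 32, 13 of 20 and 14 of 30. The lists are small and were drawn up with earlier results of these data known, so the shares are given as counts. A gene without a listed interaction had none in the deposited list. Neighboring significant pairs were merged into groups there, so a significant pair at such a gene can be missing from it.

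**Figure D5:**
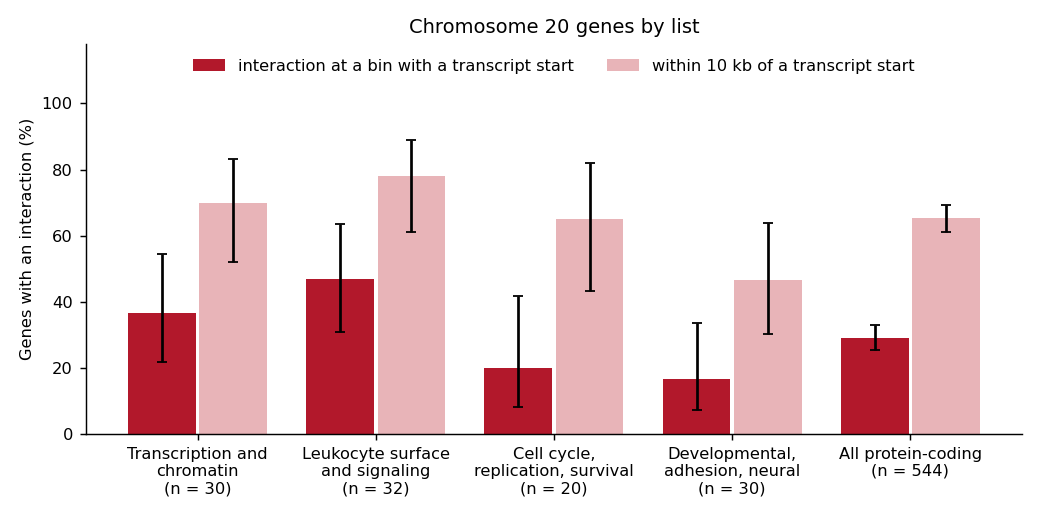
Share of genes (vertical axis, percent, with Wilson 95% intervals) with an interaction at a bin that holds a transcript start (dark bars) or within 10 kb of it (light bars), for the 4 gene lists and all 544 protein-coding genes of chromosome 20. The dark bar is highest for leukocyte genes, 46.9%, and lowest for developmental genes, 16.7%, against 29% of all genes.

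Among transcription factors and chromatin regulators, the largest contact count at a start was that of ZNF217, a zinc finger corepressor amplified in carcinomas, with 57 (43.2 to 73.9) to a bin in BCAS1, 350 kb away, and it had 5 interactions at its starts. TOX2, an HMG box factor of lymphocytes, reached the hub in ZHX3 with 43 (31.1 to 57.9) over 2670 kb, close to the 3-Mb limit of the list, and that hub holds an HLF motif. NCOA3 had 6 interactions with up to 39, and ZHX3 36 to the same hub inside the gene. ADNP followed with 30 over 1140 kb and ZBTB46, a zinc finger factor of dendritic cells, with 29. No interaction at a start or within 10 kb was listed for MYBL2, NFATC2, SALL4 or PLAGL2.

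In the list of leukocyte surface and signaling genes, SIRPD had the largest contact count, 84 as above. PLCB1 had 43 (31.1 to 57.9) from one of its internal starts to the hub at 8270001 inside the gene, 140 kb away, which holds 3 HLF motifs. DOK5, an adaptor of receptor tyrosine kinases, was joined from its start to the DOK5 anchor in its own intron with 37 (26.1 to 51.0) over 130 kb. That anchor had 19 interactions, 17 of them to the left. CD40 had 34, SIRPG 32 and PLCG1, the phospholipase C of T cell receptor signaling, 30. TGM2 (28), STK4 (28) and SRC, a tyrosine kinase (18), each had at least 1 interaction at a start. The surface gene CD93 and the phosphatase gene PTPN1 had none within 10 kb.

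Among cell cycle genes, RAE1, a mitotic checkpoint and RNA export factor, had 30 (20.2 to 42.8) and GINS1, a subunit of the replicative helicase, 25 (16.2 to 36.9) with 5 interactions. RTEL1, a helicase of telomeres, had 18, and TP53INP2, an autophagy factor, 16. For PCNA, AURKA, BCL2L1 and TPX2, which serve replication, mitosis and survival, none was listed within 10 kb of a start. Among developmental genes, SULF2 had 39 and MACROD2 37, the latter from an internal start to a bin in the same gene, 125 kb away. Counts above that also come from internal starts include those of ZNF217, ZHX3, ZBTB46, PLCG1, RAE1, GINS1 and RTEL1. FOXA2, a forkhead factor of endoderm, had 27 (17.8 to 39.3) to the hub at 23655001 over 1075 kb, a bin with 4 HLF motifs. PHACTR3, a phosphatase and actin regulator, had 23, also from an internal start, to a bin 150 kb away. The intervals of most of these counts overlap, so their order within a list is not resolved. The genes of this list without an interaction within 10 kb included BMP2, BMP7, JAG1, PAX1 and SNAP25.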

How the data were processed

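TCF3::HLF-HiChIP was measured in 2 replicates of TCF3-KO HAL-01 cells. By the methods and labels, the authors used Trim Galore 0.6.6 for trimming, merged the replicates, aligned them to hg38 with BWA-MEM, parsed pairs with pairtools without its dedup step, called MACS2 peaks as reference and called interactions with FitHiChIP, whose version is not given in the sources used here. The deposited contact counts and sumCC are raw counts of read pairs. The deposited p-value and q-value come from the FitHiChIP background for distance and bin coverage. The deposited fraction, the share of significant pairs in a merged group, was read and not reported. The list gives no coverage per bin, so densities were not scaled to it.

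Interactions were counted per chromosome and per 1-Mb window by midpoint. All bins fit hg38, with 0 past a chromosome end. HLF motifs were exact matches in the reference, and near-identical bins share 500 or more 31-mers on either strand. Shares have Wilson, counts exact Poisson and medians order-statistic 95% intervals. No test was run, since no replicate values exist. Chromosome 20, the gene lists and the rules were chosen with earlier results of these data known. Genes named are those at the 10 smallest P values, the 10 largest contact counts, the 5 largest sumCC, the 5 anchors with most interactions and the 5 densest windows, and up to 6 per list by contact count at a start bin. Other genes were named after their values were seen. A few genes that the rule would name are not reported here. Alternatives were stricter q-values, distances up to 1 Mb, at least 20 contact counts, removal of near-identical pairs or of hub interactions, other lengths, and other definitions of start and motif. The motif search, the 31-mer count and the intervals were tested on simulated data. Tools were samtools 1.23.1, scipy 1.17.1, numpy 2.4.6, pandas 2.3.3 and matplotlib 3.10.9 under Python 3.11.15.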

Additional observations from a re-analysis of the deposited data

How the results depend on the processing

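The number of interactions was 1547 as reported and ran from 1038 to 1546 under the alternatives that remove interactions. Chromosome 20 ranked 1 by density under every alternative run except without the interactions of hubs, where it ranked 2. Its density was 24.0 per Mb as reported, 20.5 and 16.1 per Mb at a q-value under 0.001 and 1e-05, 16.9 at a contact count of at least 20, 20.9 at distances up to 1 Mb and 16.1 without hub interactions, each with fewer interactions by construction, and 637 in summed contact counts. The median contact count was 26, 28 and 28 at a q-value under 0.001, under 1e-05 and with at least 20 contact counts. The median distance was 210 kb with at least 20 contact counts and 200 kb at distances up to 1 Mb. The 5 densest windows held 24.9% with at least 20 contact counts and 17.5% without hub interactions. The share of interactions with a transcript start was 29.1% without hub interactions, 76.6% within 10 kb of a start and 21.2% for protein-coding starts. With TTACGTAA alone, the motif was in 2.32% of anchors and 14.7% of hubs. Neither replicate could be left out, because the replicates were merged before calling. The listed interactions hold 41037 contact counts on chromosome 20, and a contact count of 24 has a Poisson 95% interval of 15.4 to 35.7, so ranks among single interactions of similar count are not resolved. Contacts under 50 kb, over 3 Mb or between chromosomes were not analysed here.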
